A study of Mus musculus with 8 samples.

Results

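The 10 genes described here encode the CD3 chains of the T cell receptor complex (Cd3e, Cd3d, Cd3g and Cd247), the chains of the CD8 coreceptor (Cd8a and Cd8b1), the sort markers Thy1 and Cd44, and the accessory receptors CD2 and CD5. They were taken by symbol from a table of 13204 genes, in which each symbol had 1 row, and all 10 passed the filter on low values. The cells were OT-I CD8 T cells, whose transgenic receptor recognises an ovalbumin peptide. Recipients were given 1000000 such cells 24 hours before grafting of skin that expressed ovalbumin, and for each library 1000 cells were sorted from 3 pooled spleens on day 14. Both groups were gated as CD44hi, Thy1.1+ and CD8+, and differed in surface FcgRIIB, an Fc receptor that binds IgG and inhibits the cell carrying it. The FcgRIIB+ group and the FcgRIIB- group held 4 libraries each, 1 of each kind from every pool, so that the replicate number marks the pool. The labels give no age of the animals and no genotype of the recipients, and a Thy1 value per gene does not tell the Thy1.1 allele of the gate from another allele.

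The T cell receptor recognises peptide on MHC molecules but has no signalling part of its own. The CD3 epsilon, delta, gamma and zeta chains, which assemble with it, carry the tyrosine motifs that the kinases LCK and ZAP70 act on. The CD8 alpha and beta chains bind MHC class I and bring LCK to the complex. Cytotoxic T cells carry CD8 mainly as a heterodimer of alpha and beta, whereas the alpha chain without beta is found on a subset of spleen dendritic cells that cross-presents antigen.

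FcgRIIB+ libraries held less transcript of every CD3 chain, both CD8 chains, Cd2 and Cd5 in each of the 4 pools, and Cd44 was the 1 gene that was higher in each pool. On the scale of log2(RPKM + 1), where RPKM is reads relative to exon length in kilobases and to library depth, the differences from FcgRIIB- libraries ran from -1.39 for Cd5 to 0.64 for Cd44, and 9 of 10 were below 0, beside 61.2% of all genes tested. Cd8a, at -0.28, was much nearer to the median of all genes tested (-0.11) than its partner Cd8b1, at -0.95. The median over the 10 genes was -0.94. Cd3e, Cd247 and Cd5 fell when the pool was a block in the limma fit, and none of the 10 passed without the block. In bulk libraries fewer cells of a type and less RNA per cell cannot be told apart. Summed marker RPKM, given below, was higher in the FcgRIIB+ library of every pool for some other cell types and not for others. Those with higher sums were cross-presenting dendritic cells, macrophages and monocytes, basophils and mast cells, and natural killer cells. The natural killer cell sum was carried by Tyrobp, which myeloid cells express as well. The part of all these cells in the values was not tested.

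The start regions of the CD3 genes and of Cd8a are shown because the CD3 transcripts were lower together in all pools while Cd8a differed least among the receptor chains. The sequences are the 250 bases before the annotated start, from RefSeq on the build GRCm38.p6, whereas the reads were mapped to mm9 per the submitters' processing notes. Such sequences were found for 7 of the 10 genes, and those of Cd8b1, Thy1 and Cd2 are not used here. Capitals mark matches to the letters of motifs on either strand: GGAAG of ETS factors, CAGNTG of E-box factors and GATAA of GATA factors, none of which overlapped another here. Cd3e is at chr9:45009612-45009861 (minus strand), Cd3d at chr9:44981536-44981785 (plus strand) and Cd3g at chr9:44980432-44980681 (minus strand). Cd247 is at chr1:165788431-165788680 (plus strand) and Cd8a at chr6:71373177-71373426 (plus strand).
Cd3e: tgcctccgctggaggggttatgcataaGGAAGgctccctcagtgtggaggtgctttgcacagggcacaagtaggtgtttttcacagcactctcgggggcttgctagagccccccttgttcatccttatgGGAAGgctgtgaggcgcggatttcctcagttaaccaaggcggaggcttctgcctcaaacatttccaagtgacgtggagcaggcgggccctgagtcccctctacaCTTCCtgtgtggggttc
Cd3d: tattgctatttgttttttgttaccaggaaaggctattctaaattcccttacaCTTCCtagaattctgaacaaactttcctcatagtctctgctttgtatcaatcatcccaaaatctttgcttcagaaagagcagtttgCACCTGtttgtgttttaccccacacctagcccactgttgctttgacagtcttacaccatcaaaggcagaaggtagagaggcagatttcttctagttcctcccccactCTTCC
Cd3g: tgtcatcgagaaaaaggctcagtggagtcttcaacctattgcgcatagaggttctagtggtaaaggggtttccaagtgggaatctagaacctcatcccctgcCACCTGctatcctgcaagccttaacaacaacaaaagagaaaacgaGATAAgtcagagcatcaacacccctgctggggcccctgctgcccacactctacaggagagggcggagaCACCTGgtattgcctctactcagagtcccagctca
Cd247: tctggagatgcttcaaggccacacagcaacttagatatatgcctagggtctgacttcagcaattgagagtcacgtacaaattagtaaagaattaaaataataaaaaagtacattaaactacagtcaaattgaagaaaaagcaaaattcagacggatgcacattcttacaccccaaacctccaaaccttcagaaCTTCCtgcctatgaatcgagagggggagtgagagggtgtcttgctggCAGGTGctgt
Cd8a: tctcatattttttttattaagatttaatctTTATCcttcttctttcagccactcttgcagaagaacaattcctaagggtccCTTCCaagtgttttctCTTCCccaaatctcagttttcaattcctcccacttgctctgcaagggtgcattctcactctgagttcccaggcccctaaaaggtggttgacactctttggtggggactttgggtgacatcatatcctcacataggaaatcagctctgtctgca

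Cd3d and Cd3g are neighbours read in opposite directions, with 1355 bases between their starts, and Cd3e starts 27825 bases from Cd3d. GGAAG stood 3 times before Cd3e, 2 times before Cd3d and Cd8a, 1 time before Cd247 and not before Cd3g. CAGNTG stood 2 times before Cd3g and 1 time before Cd3d and Cd247. Neither TGTGGT, of RUNX factors, nor TATAAA, of the TATA box, was in any of the 7 windows. Of 32851 such windows in the reference, 64.1% held GGAAG, 44.8% CAGNTG, 22.6% GATAA, 14.0% TGTGGT and 12.4% TATAAA.

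The libraries held 3060000 to 22010000 reads, as recovered from the steps of the low RPKM values, and replicates 1 and 2 (16470000 to 22010000) were deeper than replicates 3 and 4 (3060000 to 7360000). Fcgr2b, which encodes the receptor used for the sort, ranged over 29.6 to 69.9 RPKM in FcgRIIB+ and 1.82 to 4.82 RPKM in FcgRIIB- libraries. The 12 markers listed for CD8 T cells, 9 of which are among the 10 genes, were all in the table and none was at 0 in any library, with a summed RPKM of 2068 to 4775 in FcgRIIB+ and 5430.3 to 9225 in FcgRIIB- libraries. Markers of other cells were present too, in lists chosen with earlier results of these data known. Of all genes tested limma called 3.03% higher and 0.268% lower, and 7.22% higher with the replicate block. The summed RPKM of 14 macrophage and monocyte markers was 3284 to 4445 in FcgRIIB+ and 1748 to 3456 in FcgRIIB- libraries, led by Ly6c2 (1658 and 2162 RPKM on average), which effector CD8 T cells also express, and Lyz2 (799 and 291 RPKM). The sums overlapped, but limma called 9 of the 14 higher and none lower, with a median log2 fold change of 2.89. Of 8 markers of dendritic cells of any kind limma called 6 higher, and their sum was 290.5 to 1227 against 208 to 562, led by Ccr7 (210.1 and 299 RPKM), which T cells share, and Cd83 (141 and 16.1 RPKM). The 7 basophil and mast cell markers summed to 45.8 to 1256 against 3.53 to 36.6, led by Mcpt8 (304 and 2.78 RPKM) and Prss34 (244 and 3.22 RPKM), with Mcpt8 and Fcer1a at 0 in some library, and limma called 2 of the 7 higher (7 with the replicate block). The 6 natural killer cell markers in the table summed to 632 to 3525 against 91.7 to 393, led by Tyrobp (1754 and 186 RPKM) and Fcgr3 (59.8 and 13.6 RPKM), which myeloid cells express as well. Of these 6, limma called Fcgr3 higher and Eomes lower, the median was 0.36, and 2 were below 0, so that the sum was carried by Tyrobp (limma adjusted p = 0.0507). B cell markers (9 of 10 in the table) were at 75.7 to 212 against 98.4 to 475, led by Cd79a (49.7 and 81.8 RPKM) and Cd79b (43.3 and 85.8 RPKM). Red blood cell genes (4 of 7, led by Hba-a2 and Hbb-bs) summed to 4180.3 to 22250.5 against 3581 to 8394, neutrophil genes (4 of 7, led by S100a8 and S100a9) to 1.11 to 564 against 134 to 1448, and CD4 T cell genes (4 of 4, led by Cd40lg and Cd4) to 16.4 to 20.4 against 7.32 to 19.9. Without the block limma called none of the B cell, red blood cell, neutrophil and CD4 T cell genes. With the block 2 of the 8 B cell genes tested were lower, beside 3.85% of all genes. Of the 4 CD4 T cell genes 1, Cd4, was then higher, beside 7.22% of all genes. The part of these cells in the values below was not tested.

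**Figure D1:**
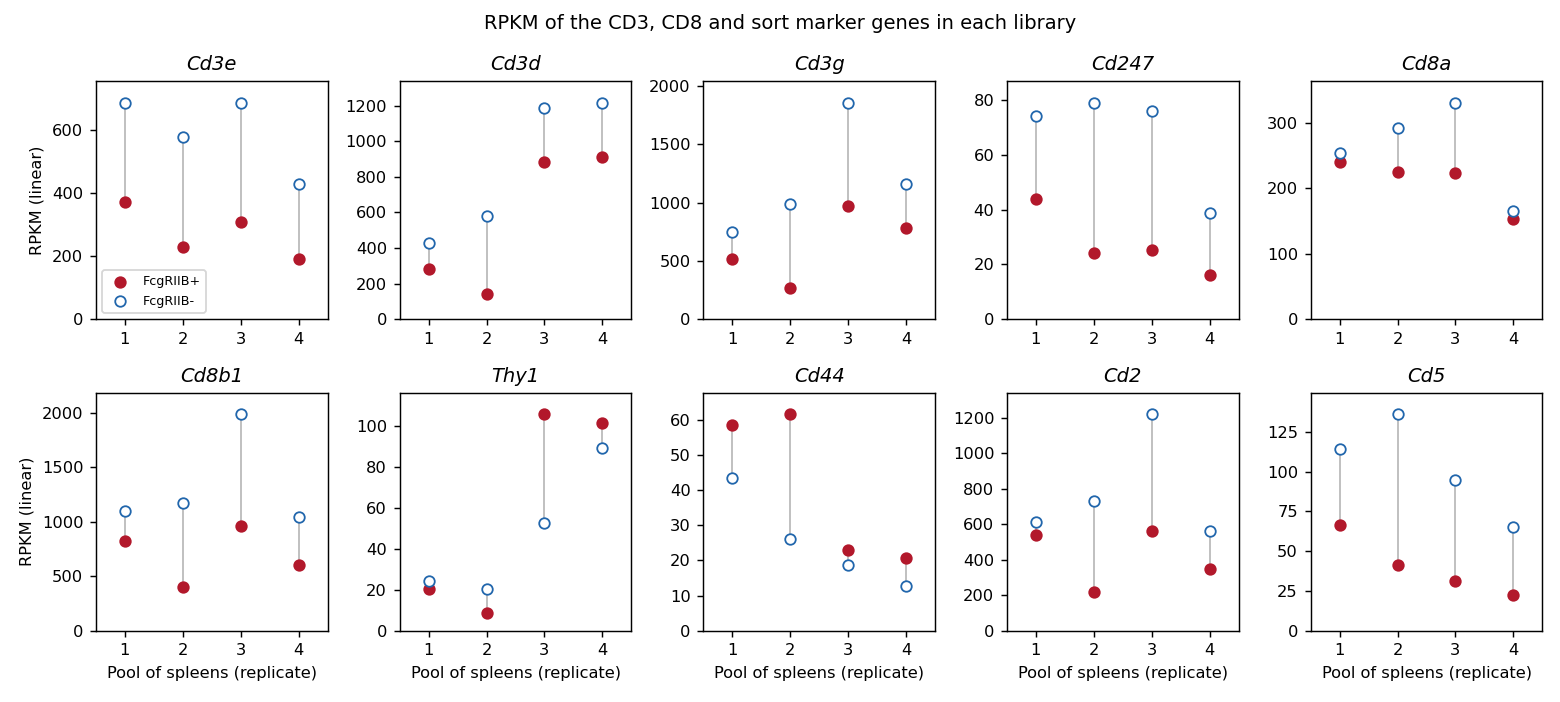
RPKM of each gene (vertical axes, linear, from 0) in the 4 pools of spleens (horizontal axes), with filled red points for FcgRIIB+ and open blue points for FcgRIIB- libraries, and a grey line joining the libraries of 1 pool. The CD3 chains, Cd8a, Cd8b1, Cd2 and Cd5 lie lower in the FcgRIIB+ library of every pool, Cd44 lies higher, and Thy1 is 8.48 to 24.4 RPKM in pools 1 and 2 and 52.8 to 106 RPKM in pools 3 and 4.

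Among the CD3 chains, epsilon pairs with delta and with gamma in the assembled receptor. Cd3e (Entrez 12501) was at 373, 228, 309 and 191 RPKM in FcgRIIB+ replicates 1 to 4 and at 688, 578, 687 and 430.4 RPKM in FcgRIIB- replicates 1 to 4. Each FcgRIIB+ library lay below each FcgRIIB- library, and the drop was of like size in the 4 pools, at -0.88, -1.34, -1.15 and -1.17 on the log2(RPKM + 1) scale. The group means were 275 ± 81.6 and 596 ± 122 RPKM (SD, n = 4 each), with a log2 fold change of -1.14 (SE 0.42, 95% interval -2.04 to -0.23), which is 2.20-fold lower. In limma the adjusted p over all genes was 0.242, and 0.0133 with the replicate block. The exact permutation p, two-sided over the 35 distinct splits of 4 and 4 libraries, was 0.0286, the smallest these splits allow.

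Cd247 (Entrez 12503) encodes the zeta chain, which carries the most signalling motifs of the complex. It was at 44.1, 24.0, 25.2 and 16.0 RPKM in FcgRIIB+ and at 74.4, 79.2, 76.1 and 38.7 RPKM in FcgRIIB- replicates 1 to 4. FcgRIIB- replicate 4 stood below the 3 others of its group and was the only FcgRIIB- library within the range of the FcgRIIB+ group. Within pools the log2 differences were -0.74, -1.68, -1.55 and -1.23. The means were 27.3 ± 11.9 and 67.1 ± 19.0 RPKM (SD, n = 4 each), and the log2 fold change was -1.30 (SE 0.39, 95% interval -2.15 to -0.45). Its adjusted p in limma was 0.126, with 0.000492 under the replicate block and 0.0498 without FcgRIIB- replicate 4. The exact permutation p was 0.0571.

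Cd3d (Entrez 12500) and Cd3g (Entrez 12502), of the delta and gamma chains, varied between replicates as much as, or more than, between groups. Cd3d was at 283, 141, 881 and 912 RPKM in FcgRIIB+ and at 427, 579, 1188 and 1216 RPKM in FcgRIIB- replicates 1 to 4. Cd3g was at 518, 268, 970.0 and 784 RPKM in FcgRIIB+ and at 751, 989, 1857 and 1156 RPKM in FcgRIIB- replicates 1 to 4. For both genes the FcgRIIB+ library was the lower of its pool in 4 of 4 pools, while the groups overlapped. Within pools the Cd3d differences were -0.59, -2.03, -0.43 and -0.42, and those of Cd3g were -0.54, -1.88, -0.94 and -0.56 (log2). The log2 fold change of Cd3d was -0.87 (SE 0.66, 95% interval -2.31 to 0.57) and that of Cd3g -0.98 (SE 0.53, 95% interval -2.14 to 0.18). Neither passed in limma (adjusted p = 0.759 and 0.547) or with the replicate block (adjusted p = 0.129 and 0.097). Pool 2 carried much of both values: without FcgRIIB+ replicate 2 they were -0.34 and -0.62. Exact permutation p-values were 0.343 and 0.114.

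Levels per exon length differed between the chains, and their order was not the same in all pools. The ratio of Cd3d to Cd3e RPKM was 0.76 and 0.62 in FcgRIIB+ and 0.62 and 1.00 in FcgRIIB- replicates 1 and 2. In replicates 3 and 4 it was 2.85 and 4.78 in FcgRIIB+ and 1.73 and 2.83 in FcgRIIB- libraries. The ratio of Cd3g to Cd3e ran from 1.09 to 1.71 in replicates 1 and 2 and from 2.69 to 4.11 in replicates 3 and 4. Cd247 stayed between 0.082 and 0.137 of Cd3e in all 8 libraries. Across the 8 libraries, which share pools and differ in depth, log2 values of Cd247 and Cd3e correlated at r = 0.97 and those of Cd3d and Cd3g at r = 0.92, but those of Cd3e and Cd3d at r = 0.26.

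**Figure D2:**
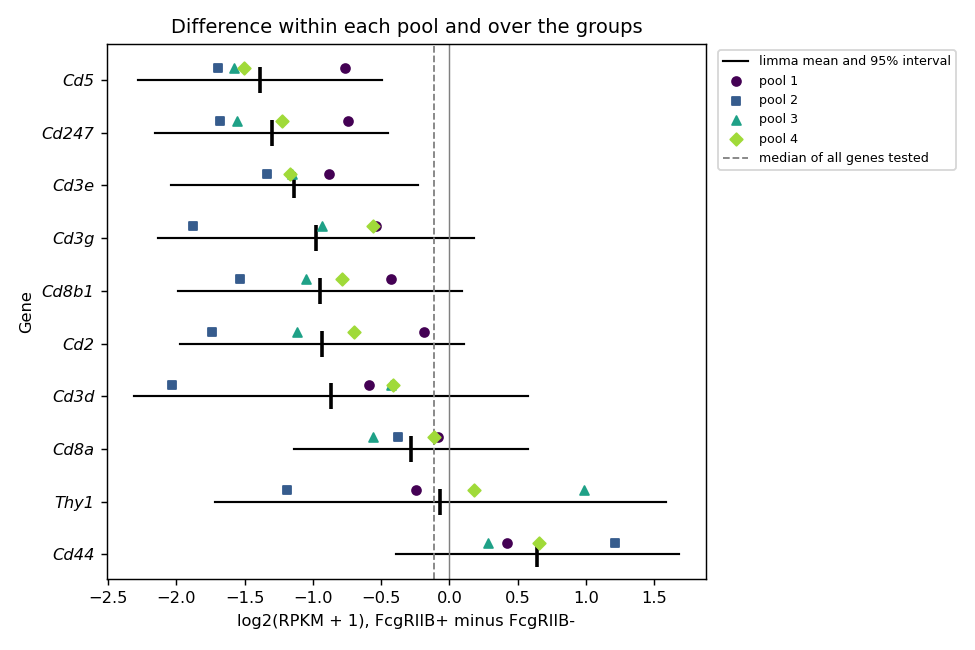
Difference of log2(RPKM + 1), FcgRIIB+ minus FcgRIIB- (horizontal axis), for each gene (rows), with 1 symbol per pool, a black tick for the limma mean and a black line for its 95% interval. The dashed line is the median of all genes tested (-0.11). Intervals are of the fit without the replicate block, which takes no account of the pools. In that fit the intervals of Cd5, Cd247 and Cd3e lie below 0, and that of every other gene includes 0.

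The CD8 chains had fold changes of unlike size, and the difference between them was not tested. Cd8a (Entrez 12525) was at 239.5, 225, 223 and 153 RPKM in FcgRIIB+ and at 254, 292, 330.4 and 165 RPKM in FcgRIIB- replicates 1 to 4. The FcgRIIB+ library was lower in each pool, with differences of -0.08 to -0.56 on the log2 scale, and the groups overlapped. Replicate 4 was the lowest of its group in both groups, and without FcgRIIB+ replicate 4 or FcgRIIB- replicate 3 or 4 the fold change given next was -0.14, -0.15 and -0.49. Cd8b1 (Entrez 12526) was at 819, 404, 959 and 604 RPKM in FcgRIIB+ and at 1103, 1173, 1986 and 1042 RPKM in FcgRIIB- replicates 1 to 4, with no overlap. Means were 210.2 ± 38.8 against 260.4 ± 70.7 RPKM for Cd8a and 697 ± 244 against 1326 ± 443 RPKM for Cd8b1 (SD, n = 4 each). The log2 fold change was -0.28 for Cd8a (SE 0.39, 95% interval -1.14 to 0.57) and -0.95 for Cd8b1 (SE 0.48, 95% interval -1.99 to 0.09). Limma called neither chain (adjusted p = 0.95 and 0.488, and 0.607 and 0.113 with the replicate block). The exact permutation p was 0.286 for Cd8a and 0.0286 for Cd8b1.

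A ratio within a library does not depend on how libraries are scaled, and is given here with no test because the chains were compared with their fold changes known. The ratio of Cd8b1 to Cd8a RPKM was 3.42, 1.80, 4.29 and 3.95 in FcgRIIB+ and 4.35, 4.02, 6.01 and 6.31 in FcgRIIB- replicates 1 to 4. It was lower in the FcgRIIB+ library of each pool, and the groups overlapped through FcgRIIB+ replicate 3. Its means were 3.36 ± 1.11 and 5.17 ± 1.16 (SD, n = 4 each). As a log2 ratio of Cd8a to Cd8b1, on the RPKM + 1 scale, the groups differed by 0.67, and by 0.39 without FcgRIIB+ replicate 2. Set against the epsilon chain, the ratio of Cd8a to Cd3e was 0.643 to 0.986 in FcgRIIB+ and 0.369 to 0.505 in FcgRIIB- libraries, without overlap. That of Cd8b1 to Cd3e was 1.77 to 3.17 and 1.60 to 2.89, which overlapped. Cd3e itself was lower without overlap, so a ratio to it rises for any gene that fell less.

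Markers of the dendritic cells that carry CD8 alpha without beta were higher in FcgRIIB+ libraries. All 10 listed for the cross-presenting kind were in the table, and none was at 0 in any library. This list too was chosen with earlier results of these data known, so the count that follows is not independent of them. Limma called all 10 higher in FcgRIIB+ libraries, beside 3.03% of all genes tested. Their summed RPKM was 1496, 2094, 1119 and 949 in FcgRIIB+ replicates 1 to 4 and 60.8 to 114 in FcgRIIB- libraries, led by Ppt1, a lysosomal enzyme (660 and 51.2 RPKM on average), and Naaa, a lysosomal amidase (174 and 8.89 RPKM). The sort had gated on Thy1.1, and the part of such cells in the CD8 chain values was not tested.

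**Figure D3:**
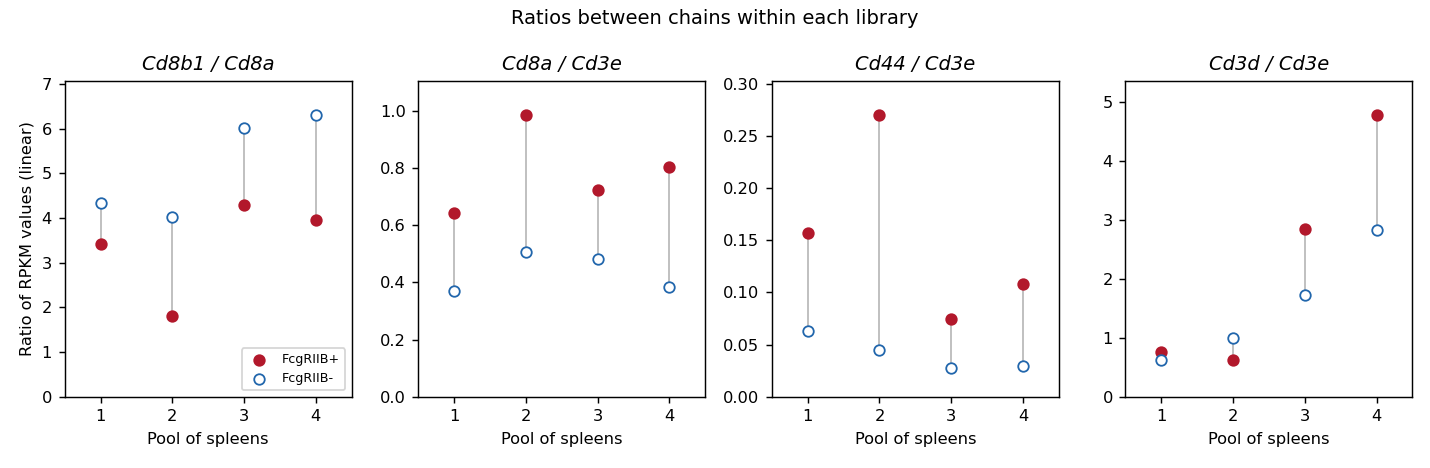
Ratio of 2 RPKM values within each library (vertical axes, linear, from 0) in the 4 pools (horizontal axes), filled red for FcgRIIB+ and open blue for FcgRIIB-. Cd8b1 to Cd8a is lower, and Cd8a to Cd3e and Cd44 to Cd3e are higher, in the FcgRIIB+ library of every pool, while Cd3d to Cd3e parts pools 1 and 2 from pools 3 and 4. Cd3e itself is lower in the FcgRIIB+ library of every pool.

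CD44 and Thy-1 were used, with CD8, to gate the cells, so that every cell sorted should carry them. Cd44 (Entrez 12505), an adhesion receptor for hyaluronan that antigen-experienced T cells and many myeloid cells carry, was at 58.4, 61.5, 23.1 and 20.6 RPKM in FcgRIIB+ replicates 1 to 4. In FcgRIIB- replicates 1 to 4 it was at 43.3, 26.0, 18.8 and 12.7 RPKM. It was higher in the FcgRIIB+ library of each pool, by 0.42, 1.21, 0.28 and 0.66 on the log2 scale, but the groups overlapped, since replicates 1 and 2 were above replicates 3 and 4 in both. Means were 40.9 ± 22.1 and 25.2 ± 13.3 RPKM (SD, n = 4 each), and the log2 fold change of 0.64 (SE 0.48, 95% interval -0.39 to 1.68) did not pass in limma (adjusted p = 0.742, and 0.089 with the replicate block). The exact permutation p was 0.257. The ratio of Cd44 to Cd3e was 0.075 to 0.27 in FcgRIIB+ and 0.027 to 0.063 in FcgRIIB- libraries, without overlap. That ratio holds the drop of Cd3e as well, whose own groups did not overlap. Leaving out FcgRIIB+ replicate 1 or 2 or FcgRIIB- replicate 4 brought the Cd44 fold change to 0.42, 0.39 and 0.38.

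Thy1 (Entrez 21838), the gene of a glycoprotein anchored in the T cell membrane by a lipid, was at 20.4, 8.48, 106 and 102 RPKM in FcgRIIB+ replicates 1 to 4. In FcgRIIB- replicates 1 to 4 it was at 24.4, 20.6, 52.8 and 89.4 RPKM. The replicates parted, not the groups: all libraries of pools 3 and 4 lay above all of pools 1 and 2. Within pools FcgRIIB+ cells were lower in pools 1 and 2 (-0.24 and -1.19, log2) and higher in pools 3 and 4 (0.99 and 0.18). The log2 fold change was -0.07 (SE 0.76, 95% interval -1.72 to 1.59), an interval that includes changes of over 2-fold in either direction. Its sign changed to positive when FcgRIIB+ replicate 1 or 2 or FcgRIIB- replicate 3 or 4 was left out (0.22, 0.61, 0.07 and 0.32). The exact permutation p was 0.886.

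CD2 and CD5 are receptors that tune T cell receptor signals, CD2 as an adhesion and costimulatory receptor for CD48 and CD5 as an inhibitor of receptor signalling. Cd2 (Entrez 12481) was at 537, 219, 562 and 348 RPKM in FcgRIIB+ and at 611, 732, 1219 and 564 RPKM in FcgRIIB- replicates 1 to 4. The groups did not overlap, although FcgRIIB+ replicate 3 and FcgRIIB- replicate 4 were nearly level, and the differences ran from -0.19 in pool 1 to -1.74 in pool 2 (log2). Means were 416 ± 163 and 782 ± 300 RPKM (SD, n = 4 each). The log2 fold change of Cd2 was -0.93 (SE 0.48, 95% interval -1.98 to 0.11; limma adjusted p = 0.501, and 0.0834 with the replicate block), with an exact permutation p of 0.0286.

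Cd5 (Entrez 12507) was at 66.8, 41.2, 31.0 and 22.4 RPKM in FcgRIIB+ and at 114, 136, 94.7 and 65.3 RPKM in FcgRIIB- replicates 1 to 4. FcgRIIB+ replicate 1 was just above FcgRIIB- replicate 4, and within pools the differences were -0.77, -1.70, -1.58 and -1.50 (log2). Means were 40.4 ± 19.2 and 103 ± 30.04 RPKM (SD, n = 4 each). The log2 fold change, -1.39 (SE 0.41, 95% interval -2.28 to -0.49), was the lowest of the 10 genes and corresponds to 2.61-fold. In limma the adjusted p was 0.116, and 0.000269 with the replicate block, and the exact permutation p was 0.0571.

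Counted over the 10 genes, limma without the block called none in either direction, where it called 3.03% of the 11946 genes tested as higher and 0.268% as lower. That fit takes no account of the pools that the groups share. At an unadjusted p under 0.05, Cd3e, Cd247 and Cd5 were lower, 3 of 10, and none was higher, against 4.67% of all genes lower and 7.48% higher. With the replicate block Cd3d, Cd3g, Cd8b1 and Cd2 were lower as well at that unadjusted level, and Cd44 was higher. Of all 11946 genes, 1464 were lower and 1312 higher by the same measure. At an adjusted p under 0.05 with the block, Cd3e, Cd247 and Cd5, 3 of 10, were lower and none was higher, against 3.85% of all genes lower and 7.22% higher. Groups without overlap were seen for 3 genes (Cd3e, Cd8b1 and Cd2), all lower, against 4.15% of all genes lower and 4.61% higher. In all 4 pools 8 of 10 were lower, against 19.8% of genes, and 1 of 10 was higher, against 10.3%. Pool 2 gave the lowest difference for 8 of the 10 genes, Cd8a and Cd44 being the others.

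Ranked by mean RPKM, both groups had Cd8b1 first, then Cd3g, Cd3d, Cd2, Cd3e and Cd8a. Neighbours in the order from Cd8b1 to Cd3e were closer in both groups than the SD of at least 1 of the genes. Cd3e and Cd8a lay apart by more than both SDs in FcgRIIB- libraries (596 and 260.4 RPKM) but not in FcgRIIB+ libraries (275 and 210.2 RPKM), with Cd3e above Cd8a in 4 of 4 libraries of each group. Cd8a stood apart by more than both SDs from the next gene in either group. Below came Cd5, Cd247, Thy1 and Cd44 in FcgRIIB- libraries and Thy1, Cd44, Cd5 and Cd247 in FcgRIIB+ libraries. Of these neighbours only Cd5 and Cd247 in FcgRIIB- libraries were apart by more than both SDs. The fewest reads behind a value were 246, for Cd5 in 1 library. Such reads come from amplified cDNA and are not independent molecules.

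The contrast between replicate sets ran through these genes. From replicates 1 and 2 to replicates 3 and 4 the mean log2 value differed by 2.22 for Thy1, 1.71 for Cd3d and 0.99 for Cd3g, and by -1.25 for Cd44, -0.81 for Cd5 and -0.58 for Cd247. These are differences between pools, not between the sorted groups. Across all genes tested, this difference correlated with log2 exon length at r = -0.33, with genes not independent replicates. Genes under 1500 bases had a median of 0.76 and genes of 5000 bases or more a median of -0.21. Cd3g (1023 bases), Cd2 (1144 bases), Cd3d (1330 bases), Cd8b1 (1416 bases) and Thy1 (1735 bases) were above 0, and Cd3e (1436 bases) was not. Depth differed between the same sets, and the labels give no batch, so that pool, depth and handling cannot be told apart. Within replicates 1 and 2 and within replicates 3 and 4 the group difference was -1.31 and -0.42 for Cd3d, -1.21 and -0.75 for Cd3g, 0.82 and 0.47 for Cd44 and -0.72 and 0.59 for Thy1. For Cd3e, Cd247, Cd8b1, Cd2 and Cd5 these values lay within 1.5 times of each other, between -0.91 and -1.54.

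**Figure D4:**
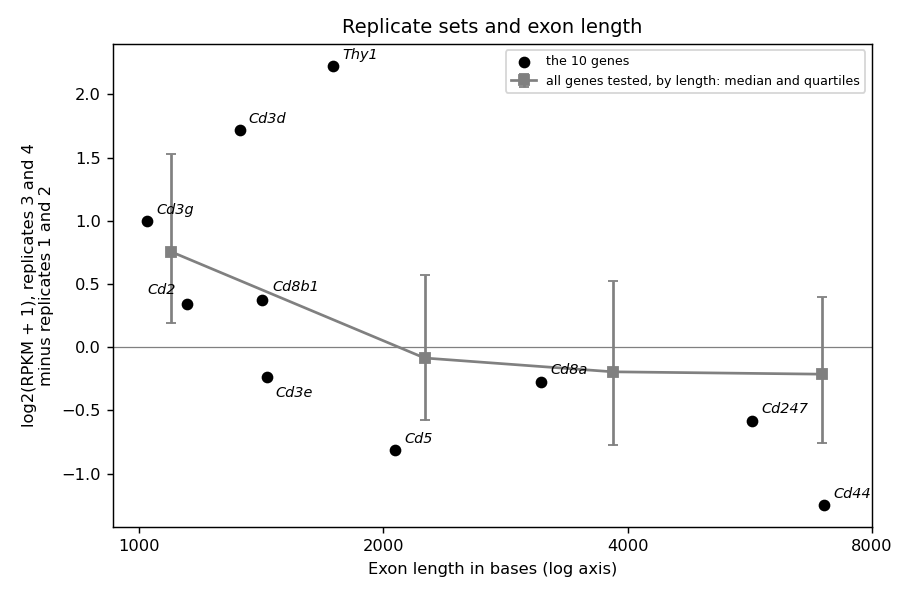
Difference of mean log2(RPKM + 1) between replicates 3 and 4 and replicates 1 and 2 (vertical axis) against exon length in bases (horizontal log axis), with black points for the 10 genes and grey squares with bars for the median and quartiles of all genes tested in 4 length classes. Thy1 (2.22) and Cd3d (1.71) lie above the upper quartile of genes of their length, and Cd44 (-1.25), Cd5 (-0.81) and Cd3e (-0.24) lie below the lower.

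The genes whose pattern over the 8 libraries was most like the mean log2 value of the 4 CD3 genes were Dctd (r = 0.99), Ms4a4b (0.98), Sh2d1a (0.98), Mrpl1 (0.98) and Hopx (0.97). Dctd was a low gene, at 0.395 to 1.47 RPKM in FcgRIIB+ and 2.42 to 3.58 RPKM in FcgRIIB- libraries. Cd8b1 and Cd2 reached r = 0.97 and 0.95 with the same mean. Cd8a was at 0.43, beside 0.43 for Thy1, 0.61 for Cd5 and 0.72 for Cd247, which is part of that mean. With the single CD3 genes, Cd8a was at r = 0.79 for Cd247 and 0.71 for Cd3e, but 0.23 for Cd3g and -0.15 for Cd3d. Sh2d1a, which encodes the adaptor SAP of the SLAM receptors, was at 35.4 to 134 RPKM in FcgRIIB+ and 150 to 421 RPKM in FcgRIIB- libraries. Most like Thy1 were S100a6, Stard10, Ccl5, Pigt and S100a4 (r = 0.99 each). Ccl5, a chemokine that effector CD8 T cells make, was at 826 and 1872 RPKM in FcgRIIB+ and 1655 and 2006 RPKM in FcgRIIB- libraries of pools 1 and 2, and at 5153 to 7020.5 RPKM in pools 3 and 4. These correlations describe 8 libraries that share pools and depth.

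Genes that act with these receptors were taken as lists. Genes of T cell receptor signalling and its control, inhibitors included and CD3 chains left out, made a list of 31, all tested. Limma called none of them (at an unadjusted p under 0.05, 11 lower and 2 higher). The median log2 fold change was -0.71, beside -0.11 for all genes, and 27 of 31 were below 0, beside 61.2% of all genes. With the replicate block 13 of 31 fell, beside 3.85% of all genes, and 2 rose, Syk and Cd4 (named after their values were seen), beside 7.22%. Trat1, an adaptor that associates with the receptor, was at 5.95, 7.31, 13.5 and 15.4 RPKM in FcgRIIB+ and 34.6, 65.7, 67.9 and 13.9 RPKM in FcgRIIB- replicates 1 to 4. FcgRIIB- replicate 4 alone overlapped with the other group, and the log2 fold change of -1.87 had a limma adjusted p of 0.0771, of 0.0119 without that library, of 0.000144 with replicates 1 and 2 only and of 0.000588 with the block. Skap1, an adaptor of integrin activation, was at 27.8 ± 8.21 and 67.6 ± 17.5 RPKM, and Prkcq, the kinase PKC theta, at 21.7 ± 6.66 and 53.5 ± 17.6 RPKM in FcgRIIB+ and FcgRIIB- libraries (SD, n = 4 each). Both were called with the block (limma adjusted p = 0.00132 and 0.000526) and not without it (adjusted p = 0.0901 and 0.111). Without the block they were also called when FcgRIIB- replicate 4 was left out (adjusted p = 0.0463 and 0.0461), with quantile normalization (0.0432 and 0.0270) and with replicates 1 and 2 only (0.0444 and 0.0306).

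Among 14 tested partners of CD2, CD5 and CD44, Cd74 and Cd244 rose in limma and none fell, beside 3.03% and 0.268% of all genes. With the block 3 rose and 2 fell, beside 7.22% and 3.85%. The median was -0.37, and 11 of 14 were below 0, beside 61.2% of all genes. Cd74, the class II invariant chain, which pairs with CD44 as a receptor on myeloid and B cells, was at 4794 to 6220.2 RPKM in FcgRIIB+ and 336 to 1137 RPKM in FcgRIIB- libraries (log2 fold change 3.31, SE 0.52, limma adjusted p = 0.00429). Cd244, a receptor for CD48 on cytotoxic lymphocytes and myeloid cells, was at 31.6, 43.9, 12.1 and 11.8 RPKM in FcgRIIB+ and 3.35 to 4.54 RPKM in FcgRIIB- libraries. The difference was 2.17 (log2, SE 0.41, limma adjusted p = 0.0129). The call was lost with scaling to a common sum (adjusted p = 0.0979), with replicates 3 and 4 only (difference 1.43, adjusted p = 0.0659) and, just over the threshold, without FcgRIIB- replicate 3 (adjusted p = 0.050). Cd2ap, which binds the tail of CD2, was at 9.52 against 3.51 RPKM (limma adjusted p = 0.111, 0.0292 without FcgRIIB- replicate 4 and 0.00679 with the block). Cd6, a relative of CD5, and Cd72, both named after their values were seen, fell with the block (69.8 against 157 and 41.5 against 92.2 RPKM; limma adjusted p = 0.000571 and 0.0155).

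Of 13 transcription factors known to act on the CD3 and CD8 genes, 1 fell in limma and none rose, beside 0.268% and 3.03% of all genes. With the block 4 fell, beside 3.85%. The median was -0.58, and 10 of 13 were below 0, beside 61.2% of all genes. Tcf7, which encodes TCF-1, was at 40.7, 39.4, 32.5 and 35.7 RPKM in FcgRIIB+ and 120, 135, 82.6 and 81.3 RPKM in FcgRIIB- replicates 1 to 4, without overlap. Its limma adjusted p of 0.0336 went to 0.0278 without FcgRIIB- replicate 4 and to between 0.0648 and 0.119 without any 1 of the 7 other libraries. The call was also lost with median ratio scaling (adjusted p = 0.0924), scaling to a common sum (0.171) and replicates 3 and 4 only (0.127). Lef1, its relative, was at 13.9 against 34.2 RPKM (limma adjusted p = 0.108, 0.0307 with quantile normalization, 0.0383 without FcgRIIB- replicate 4 and 0.00202 with the block), and Bcl11b at 8.27 against 14.9 RPKM (adjusted p = 0.259, and 0.0615 with the block). Gata3 and Ets1, named after their values were seen, were the others that fell with the block (11.1 against 20.7 and 63.2 against 120 RPKM; limma adjusted p = 0.0424 and 0.0207).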

How the data were processed

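Poly(A) RNA of 8 libraries was measured by RNA sequencing after SMART-seq v4 amplification and NexteraXT library making, per the labels' protocols. The authors deposited RPKM per gene, with exon length, per the file headers. The submitters' processing notes name TopHat2 and mm9. The read counting and its use of strand are not given in the sources used here, so reads of overlapping genes may be shared. Of the gene IDs, 13187 matched the reference (GRCm38.p6) and 17 did not, and 21 symbols turned into dates were restored by ID.

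Depth was recovered from the steps of low RPKM values, 100% of which were whole reads within 0.1 in each library. It is used to describe precision. Reads of amplified cDNA are not independent molecules.

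Limma 3.58.1 (R 4.3.3, eBayes with trend) was fitted to log2(RPKM + 1) of genes that reached 1 RPKM in 4 libraries or more, with the group as the only term. Tests were two-sided with Benjamini-Hochberg adjustment over all 11946 genes and a threshold of 0.05, and fold changes understate the change of low genes. The replicate block was the second fit. Replicate numbers mark a shared pool, per the series design text, and within-group deviations of same-numbered libraries had correlations of 0.70, 0.41, 0.56 and 0.68 for pools 1 to 4. Exact permutation tests of the 10 single genes are unadjusted and take no account of the pools. Only the fit without the block was tried on simulated data, which had independent errors and no pool effect. The block fit and the permutation test were not tried in this way.

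The 10 genes and all lists were chosen with earlier results of these data known. Named beside them are the 3 genes of each pathway list with the smallest p, the 2 most abundant markers of each other cell type, and the 5 genes most like the CD3 mean and Thy1. Genes with only a locus or clone name were passed over. Alternatives changed the pseudocount, filter, scaling, trend, block and libraries used.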

Additional observations from a re-analysis of the deposited data

Results flagged for a closer look

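In FcgRIIB- cells Cd247 was at 38.7 RPKM in replicate 4, far below the 3 other libraries of its group at 74.4 to 79.2 RPKM, a gap of 0.91 of the whole range on the log2 scale. In FcgRIIB+ cells Cd8a was at 153 RPKM in replicate 4, below the 3 others at 223 to 239.5 RPKM, with a gap of 0.84 of the range. These 2 were marked for a sample far from the others, beyond the 95% critical value of Dixon, among 22 groups of 4 libraries examined. Chance marks about 1 in 20 such groups. FcgRIIB- replicate 4 was the shallowest library (3060000 reads), and FcgRIIB+ replicate 4 the shallowest of its group (5310000 reads).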

How the results depend on the processing

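Of the 10 genes, 9 kept the direction of their difference under all 19 alternatives, and Thy1 did not. Thy1 was at 0.59 with replicates 3 and 4 only, and between -0.55 and 0.61 with single libraries left out. Calls among the 10 genes were gained with the replicate block (Cd3e -1.14, Cd247 -1.30, Cd5 -1.39; 3 lower), quantile normalization (Cd247 -1.22, Cd5 -1.32; 2 lower) and replicates 1 and 2 only (Cd5 -1.23; 1 lower), and no gene was called higher under any of the alternatives. With single libraries left out 0 to 1 gene was called lower, and Cd247 ran from -1.55 to -1.08. The block changed no other call among the 10 genes. The cause of these changes was not tested.

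Over all genes 362 were higher and 32 lower. The replicate block gave 863 and 460, and replicates 1 and 2 only 875 and 142. Scaling to a common sum gave 220 and 8. The lower count was 11 with replicates 3 and 4 only, 19 with median ratios and without trend, and 60 with quantile normalization. Single libraries left out gave 178 to 503 higher (178 without FcgRIIB- replicate 3) and 5 to 45 lower. In the list of T cell receptor signalling genes 13 fell with the block, 5 with replicates 1 and 2 only, 3 without FcgRIIB- replicate 4 and 2 with quantile normalization, against 0. Each of the 10 genes had at least 246 reads in every library, but these are amplified reads, and what depth limits in the values was not tested.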

Other observations

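Relative to Cd3e the other receptors differed in how they followed it, given here as values with no test. Cd3e itself was lower in the FcgRIIB+ library of each pool, so a ratio to it rises for any gene that fell less. The ratio of Thy1 to Cd3e RPKM was higher in the FcgRIIB+ library of 4 of 4 pools, at 0.055, 0.037, 0.342 and 0.533 against 0.035, 0.036, 0.077 and 0.208. That of Cd2 to Cd3e was higher in 3 of 4 pools, at 0.96 to 1.82 against 0.89 to 1.77, and that of Cd5 to Cd3e was lower in 3 of 4 pools, at 0.10 to 0.181 against 0.138 to 0.235. Ratios of Thy1, Cd2 and Cd5 to Cd3e all overlapped between the groups. Cd4, the coreceptor of helper T cells, also found on some dendritic cells and macrophages, was at 5.54, 8.49, 3.77 and 7.34 RPKM in FcgRIIB+ and at 1.098, 1.34, 1.22 and 5.70 RPKM in FcgRIIB- replicates 1 to 4. It was higher in each pool, and its highest value in FcgRIIB- libraries was in the shallowest, replicate 4.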
